A study of Arabidopsis thaliana with 12 samples.

Results

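In shoots of Arabidopsis thaliana seedlings, 119 genes had lower signals at 0.3 mM than at 2 mM calcium both in the mutant line lcs7 and in the wild type Col-0. Their symbol in the probe annotation used here is a bare locus identifier, and such genes are called locus-only. They may have names elsewhere. They were chosen among 11799 locus-only genes, of which they are 1.01%. They were selected on the measured signals of these same arrays: for each gene, the mean of log2(signal + 50) had to be lower at 0.3 mM calcium by at least 0.6 in lcs7 and by at least 0.6 in Col-0. Probe sets of more than 1 gene, or with no gene in the annotation, were not used. The probe set with the highest mean signal stood for its gene. AT3G61260 met both limits, with differences of -2.0 in lcs7 and -0.83 in Col-0, and was left out by name.

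Calcium cross-links pectin in plant cell walls, stabilises membranes and acts as a second messenger that binds sensor proteins. Plant cells store most of it in the vacuole, and transporters load it there in exchange for protons. AVP1, a proton-pumping pyrophosphatase of the vacuolar membrane, supplies part of that proton gradient. When the calcium supply is low, young leaves are usually affected first, because calcium moves with the water stream and is hardly moved again once it has been placed in a leaf.

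The groups were lcs7 at 0.3 mM calcium, lcs7 at 2 mM calcium, Col-0 at 0.3 mM calcium and Col-0 at 2 mM calcium, with 3 arrays each that the labels call biological replicates. All plants were 14 days old, grown on Yamagami agar with sucrose, and only shoots were taken. The line lcs7 is a mutant of AVP1 in the Col-0 background, and it is a single mutant line, so an effect of the gene and of anything else that line carries cannot be told apart. AVP1 itself was not analysed here.

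Array medians of the signal ran from 161.3 to 187.6. Of 9 listed shoot markers 1 was measured here, RCA (rubisco activase), at a mean signal of 21900, and of 8 root markers 3, among them the root hair genes EXPA7 and EXPA18 at 25.1 and 60.1. Signals of different probe sets are not on 1 scale of RNA amount, so these markers do not settle how pure the shoots were. PYK10, a beta-glucosidase abundant in roots, had mean signals of 5880 in lcs7 at 0.3 mM, 2680 in lcs7 at 2 mM, 1530 in Col-0 at 0.3 mM and 986 in Col-0 at 2 mM. It was higher in lcs7 than in Col-0 averaged over calcium (1.64 ± 0.11, SE, adjusted p = 2.86e-06), and its part in the results below was not tested. In Col-0 at 0.3 mM, replicates 2 and 3 stood apart from replicate 1. At 11 genes that were at least 8-fold higher in every lcs7 array than in any Col-0 array at 2 mM, their median level was 25.5% and 37.2% of the lcs7 level, against -0.1% in replicate 1. The main counts and medians that compare the lines are given with and without these arrays.

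Levels of the 119 genes were similar in all 3 lcs7 arrays at 0.3 mM and more spread in the other groups. The median over the genes, relative to the mean of Col-0 at 2 mM on the log2 scale, was -1.48, -1.45 and -1.40 in lcs7 at 0.3 mM. It was -0.54, 0.02 and -0.24 in lcs7 at 2 mM. In Col-0 at 0.3 mM it was -1.02, -0.73 and -0.72, and in the Col-0 arrays at 2 mM -0.12, -0.02 and 0.15. Replicate 1 thus had the lowest median in every group. Replicate 1 of lcs7 at 2 mM was the lowest array of its group for most of the genes (100 of 119), and replicate 1 of Col-0 at 0.3 mM the lowest of its group for 86. In Col-0 the difference was as large without replicates 2 and 3. With replicate 1 alone the median was -1.02, against -0.02 over all genes. All 119 genes were then below the 2 mM mean and 115 were lower by at least 0.6. Replicate 1 is itself part of the Col-0 mean that chose the genes, so these values are a description only.

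**Figure D1:**
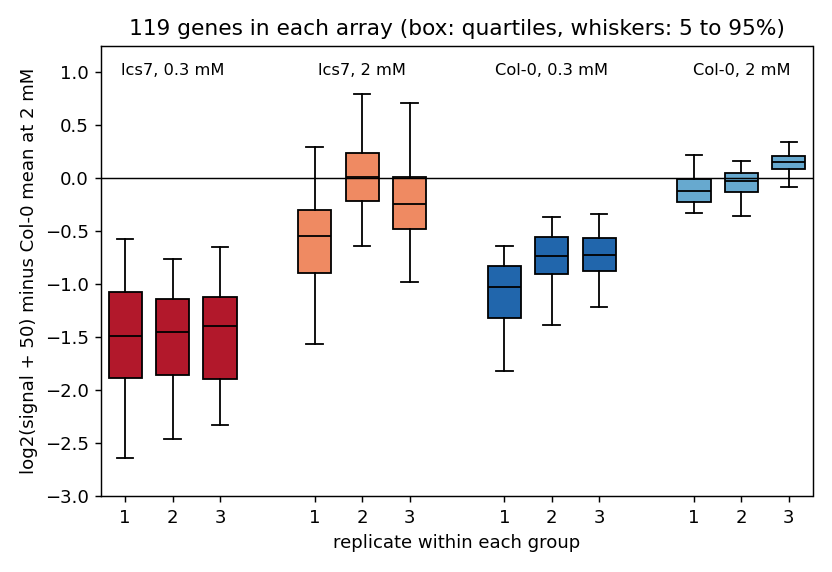
Distribution of the 119 genes in each of the 12 arrays, as log2(signal + 50) minus the mean of Col-0 at 2 mM; boxes show quartiles, the line the median and whiskers the central 90% between the 5 and 95% points. Medians lie between -1.48 and -1.40 in lcs7 at 0.3 mM, and lcs7 replicate 1 at 2 mM (-0.54) lies below its replicates 2 and 3.

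These differences chose the genes, so they are a description and carry no test. In lcs7 the difference between 0.3 and 2 mM had a median of -1.15 (lowest -2.50, highest -0.61), and in Col-0 a median of -0.80 (lowest -2.01, highest -0.60), against -0.02 and -0.01 over all 13356 genes. The median gene kept 38.4% of its 2 mM signal in lcs7 and 55.0% in Col-0. At least a 2-fold difference on the log2(signal + 50) scale was found for 78 genes in lcs7, for 30 in Col-0 and for 23 in both. The 3 lcs7 arrays at 0.3 mM all lay below those at 2 mM for 110 of the 119 genes (22.2% of all genes), and the same held in Col-0 for 114 (12.2% of all genes). For 51 genes all 6 arrays at 0.3 mM lay below all 6 at 2 mM, which was so for 2.63% of all genes.

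AT2G20670 had the lowest mean of both differences. Its signals were 989.6, 741.3 and 776.1 in lcs7 at 0.3 mM and 2442.9, 7017.1 and 6284.0 in lcs7 at 2 mM, a log2 difference of -2.45. In Col-0 they were 653.6, 1993.0 and 1960.7 at 0.3 mM and 4237.7, 3797.7 and 5952.0 at 2 mM, a difference of -1.70. All 6 low-calcium arrays were below all 6 others, and within each line replicate 1 stood low in one group: lcs7 at 2 mM and Col-0 at 0.3 mM.

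AT2G05540 was the next most different gene in lcs7 after AT5G03120. Its signals were 977.0, 393.7 and 517.6 in lcs7 at 0.3 mM and 3068.1, 3957.3 and 3406.8 in lcs7 at 2 mM. Col-0 had 911.2, 844.4 and 761.5 at 0.3 mM and 2374.5, 1540.6 and 3092.3 at 2 mM. All 6 low-calcium arrays lay below all 6 others, and in low calcium the lines overlapped. The difference was -2.46 in lcs7 and -1.37 in Col-0.

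The difference of AT4G16563 was about as large in Col-0 as in lcs7, -2.08 in lcs7 and -2.01 in Col-0, the lowest of all 119 genes in Col-0. Its signals were 238.1, 342.8 and 499.9 in lcs7 at 0.3 mM and 720.4, 2647.5 and 2220.3 in lcs7 at 2 mM. Col-0 had 421.9, 408.1 and 772.7 at 0.3 mM and 1767.4, 2238.2 and 2772.2 at 2 mM. The groups of a line did not overlap, but lcs7 replicate 1 at 2 mM was below the highest Col-0 array at 0.3 mM.

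AT3G05900 had 179.7, 194.4 and 273.0 in lcs7 at 0.3 mM, against 1033.5, 1473.6 and 1160.6 in lcs7 at 2 mM. In Col-0 the signals were 359.5, 404.6 and 533.4 at 0.3 mM, against 1088.9, 1212.1 and 1632.0 at 2 mM. The lines overlapped at 2 mM, while in low calcium every lcs7 array was below every Col-0 array.

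AT5G03120 and AT3G19850 had the same shape with a wider gap between the lines in low calcium. AT5G03120 had 163.0, 148.4 and 220.6 in lcs7 at 0.3 mM, against 865.1, 1823.5 and 1167.3 in lcs7 at 2 mM. Col-0 had 622.7, 608.4 and 642.2 at 0.3 mM, against 1038.1, 1359.0 and 1484.1 at 2 mM. This gave differences of -2.50 in lcs7, the largest there, and -0.98 in Col-0. AT3G19850 had 185.9, 202.5 and 238.2 in lcs7 at 0.3 mM, against 1041.3, 1430.0 and 1089.2 in lcs7 at 2 mM. Its Col-0 signals were 849.4, 599.3 and 775.0 at 0.3 mM, against 1272.5, 1424.4 and 1558.8 at 2 mM.

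AT3G53250 is listed in RefSeq with the name SMALL AUXIN UPREGULATED RNA 57, the only 1 of the 119 with a descriptive name there. Small auxin up-regulated RNAs are short, quickly transcribed auxin response genes, several of which promote cell expansion. Its signals were 17.6, 12.4 and 1.5 in lcs7 at 0.3 mM, 65.8, 213.2 and 79.7 in lcs7 at 2 mM, 1.7, 72.8 and 53.7 in Col-0 at 0.3 mM and 207.9, 230.9 and 206.2 in Col-0 at 2 mM. The lowest signals are near background, and replicates of Col-0 at 0.3 mM disagreed widely. Among the 12 genes with the lowest mean of both differences, the others were AT1G22330, AT5G48490, AT1G62510, AT3G06770 and AT5G01015, from -2.25 to -1.71 in lcs7 and from -1.31 to -0.80 in Col-0.

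AT5G48490 and AT5G01015 were genes at which the Col-0 arrays at 0.3 mM disagreed. AT5G48490 had 285.2, 351.4 and 331.7 in lcs7 at 0.3 mM, 1220.8, 2503.9 and 1642.6 in lcs7 at 2 mM, 581.5, 1461.5 and 1419.2 in Col-0 at 0.3 mM and 1756.8, 2385.3 and 2272.4 in Col-0 at 2 mM. AT5G01015 had 327.3, 434.7 and 518.0 in lcs7 at 0.3 mM, 1546.7, 2444.3 and 1893.8 in lcs7 at 2 mM, 823.2, 1560.6 and 1509.7 in Col-0 at 0.3 mM and 1696.9, 2489.1 and 2582.5 in Col-0 at 2 mM. In both genes Col-0 replicate 1 at 0.3 mM was well below replicates 2 and 3 but still above every lcs7 array at that calcium level.

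AT1G22330 had 150.4, 182.9 and 175.1 in lcs7 at 0.3 mM and 538.1, 1393.3 and 994.4 in lcs7 at 2 mM, a difference of -2.13. Its Col-0 signals were 165.1, 340.8 and 400.0 at 0.3 mM and 590.2, 773.6 and 788.9 at 2 mM, a difference of -1.18. Replicate 1 of Col-0 at 0.3 mM lay within the range of lcs7 at 0.3 mM, so the lines overlapped there. AT3G06770 had 281.5, 397.4 and 466.1 in lcs7 at 0.3 mM, 915.2, 1869.5 and 1402.0 in lcs7 at 2 mM, 620.2, 871.2 and 989.4 in Col-0 at 0.3 mM and 1830.3, 2111.1 and 2357.8 in Col-0 at 2 mM. Within each line its groups were separate, and lcs7 replicate 1 at 2 mM lay inside the range of Col-0 at 0.3 mM.

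**Figure D2:**
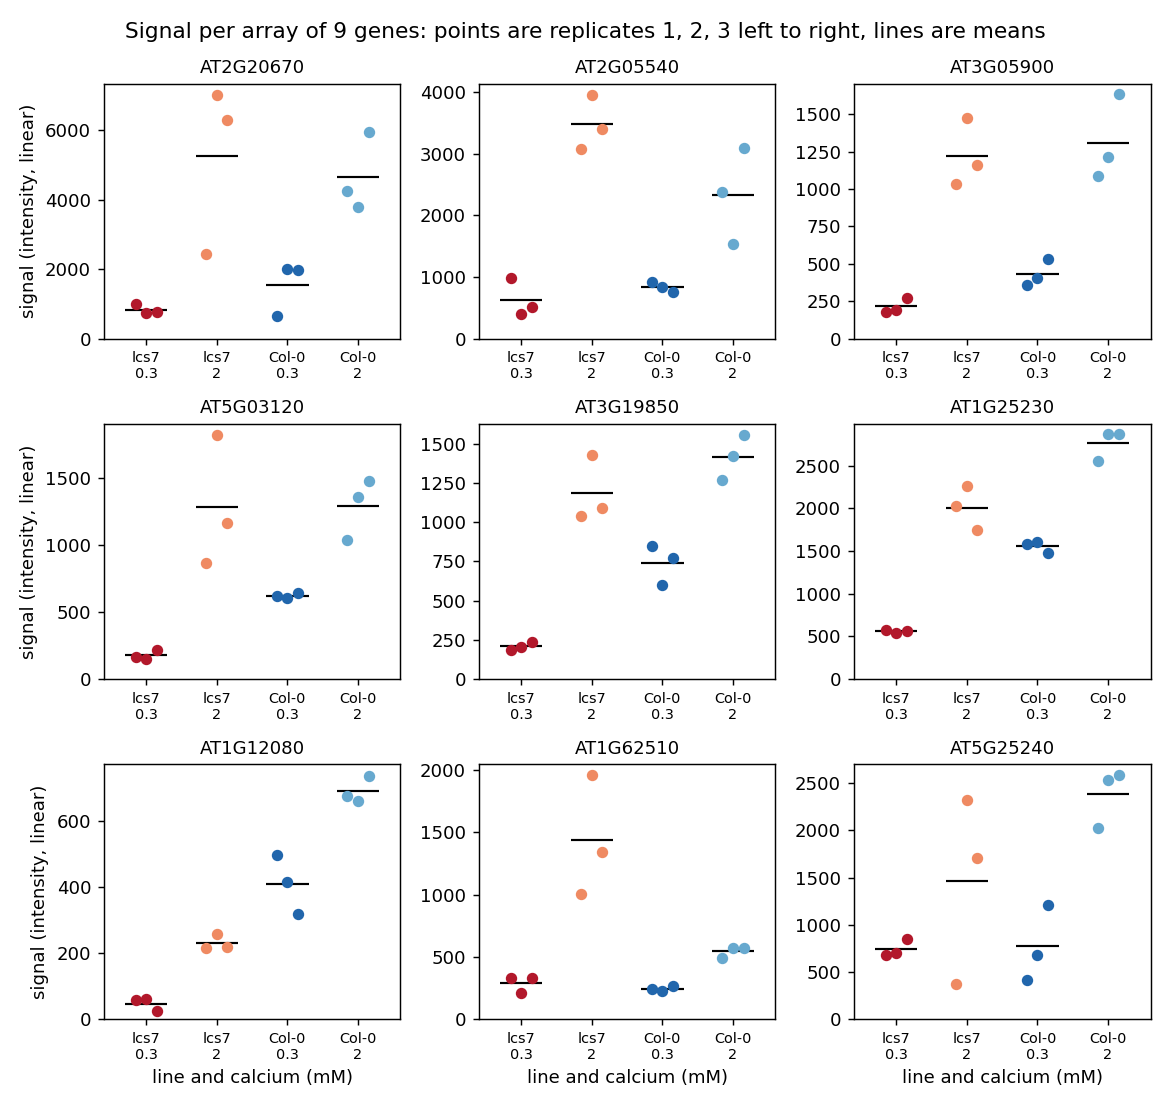
Signal on a linear scale in each array for 9 of the genes, with replicates 1, 2 and 3 from left to right in each group and lines at the group means. AT1G12080 is lower in lcs7 at both calcium levels, AT1G62510 is higher in lcs7 at 2 mM, and lcs7 replicate 1 of AT5G25240 at 2 mM lies below the 0.3 mM arrays.

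The genes differed in which line had the larger calcium difference. It was larger in lcs7 for 101 genes and in Col-0 for 18, and for 31 the lines lay within 0.2 of each other. The lcs7 difference minus the Col-0 difference had a median of -0.34 and ran from -1.52 (AT5G03120) to 1.07 (AT5G25240). With replicate 1 as the only Col-0 array at 0.3 mM, 69 genes had the larger difference in lcs7 and 50 in Col-0. No test was made of this quantity, since it is computed from the values that chose the genes.

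AT5G25240, AT1G50040 and AT1G23030 had the differences that leaned most toward Col-0. AT5G25240 had 682.5, 700.5 and 851.0 in lcs7 at 0.3 mM and 373.2, 2319.3 and 1710.2 in lcs7 at 2 mM, so its groups overlapped through replicate 1. In Col-0 it had 414.8, 684.8 and 1214.3 at 0.3 mM and 2026.5, 2529.0 and 2588.1 at 2 mM, with no overlap. AT1G50040 had 228.1, 345.4 and 417.3 in lcs7 at 0.3 mM, 293.6, 930.7 and 754.6 in lcs7 at 2 mM, 185.4, 228.3 and 494.9 in Col-0 at 0.3 mM and 1069.0, 888.6 and 1013.7 in Col-0 at 2 mM. It too overlapped in lcs7 only through replicate 1 at 2 mM. Without lcs7 replicate 1 at 2 mM, the lcs7 difference of AT5G25240 was -1.37 in place of -0.61, that of AT1G50040 -1.26 in place of -0.80, and that of AT1G23030 -1.18 in place of -0.69.

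That array was the one that overlapped throughout. In each of the 9 genes whose lcs7 groups overlapped, replicate 1 was the lowest array at 2 mM, and without it all 9 separated. The other genes of these 9 were AT4G35320, AT2G28200, AT4G37240, AT2G30930, AT1G10020 and AT5G51670. Without that array the lcs7 difference of all 119 genes had a median of -1.31, and it was the larger one for 112 genes, with 7 larger in Col-0. In Col-0 the groups overlapped for 5 genes, AT1G02660, AT3G59350, AT1G54740, AT1G22570 and AT2G32150.

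**Figure D3:**
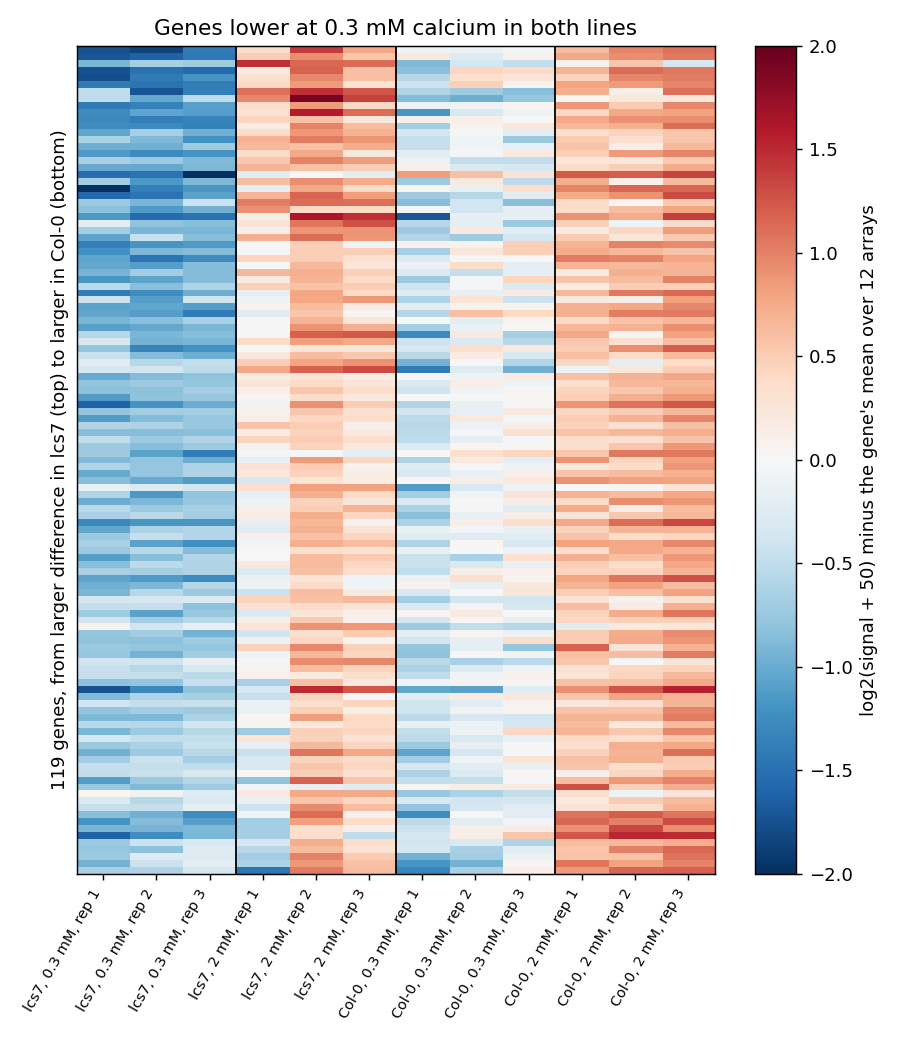
Level of each of the 119 genes (rows) in the 12 arrays (columns), as log2(signal + 50) minus the mean of the gene over all arrays. Rows run from genes with the larger calcium difference in lcs7 at the top to those with the larger one in Col-0 at the bottom, where lcs7 replicate 1 at 2 mM is low, as for AT5G25240 (373.2, against 2319.3 and 1710.2 in replicates 2 and 3).

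**Figure D4:**
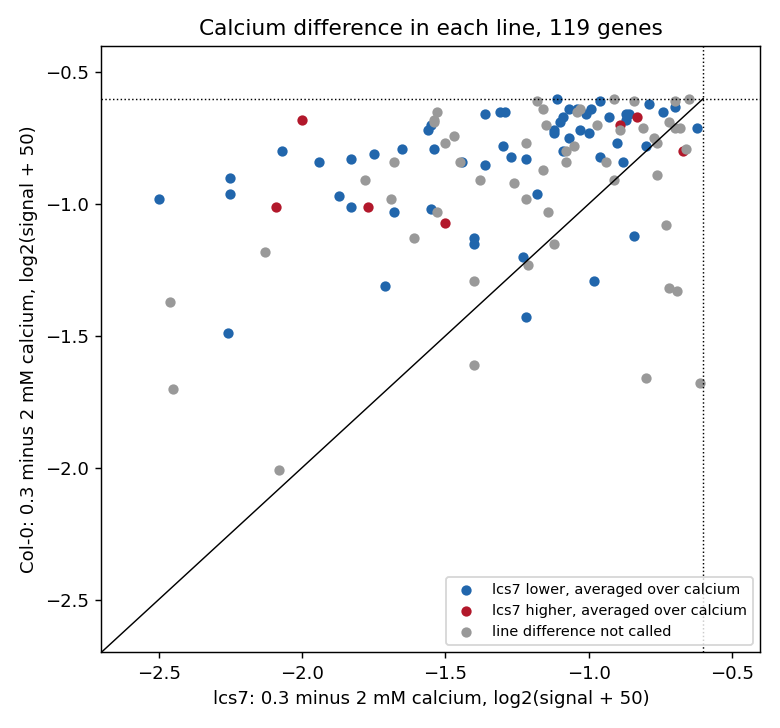
Calcium difference of each of the 119 genes in lcs7 (horizontal) and in Col-0 (vertical), on the log2(signal + 50) scale. Dotted lines mark the limit of -0.6 that chose the genes, the solid line equal differences, and colours the call for lcs7 against Col-0 averaged over calcium.

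Whether the lines differ at these genes was tested with a contrast that the choice of the genes did not use: lcs7 minus Col-0, averaged over both calcium levels. With 3 arrays in each group it is orthogonal to both calcium differences. Of the 119 genes 58 were lower in lcs7 (48.7%) and 7 were higher (5.88%) at a limma adjusted p under 0.05, adjusted over all 13356 genes. Over all genes the shares were 11.7% lower and 9.07% higher. The 119 genes were brighter than most, with 113 at a mean signal of at least 100, and among the 7337 genes that bright the shares were 18.7% lower and 12.9% higher. The median difference was -0.46 (lowest -1.82, highest 0.73), against -0.02 for all genes, and 103 of the 119 were below 0.

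Of the 58 genes, 57 had a lower mean in lcs7 at both calcium levels. For some of them the difference at 2 mM was very small: AT3G60290 had -0.02 there and -0.78 at 0.3 mM, AT5G03120 -0.06 and -1.58, and AT3G05900 -0.09 and -0.86. A call on the average favours the same sign at both levels, and the share among all genes called lower is not given here. By level, the median lcs7 minus Col-0 difference of the 119 genes was -0.29 at 2 mM and -0.62 at 0.3 mM, both without a test. With replicate 1 as the only Col-0 array at 0.3 mM, the median there was -0.35. The choice of the genes sets 0.3 mM below 2 mM in each line, so only some orders of the groups were possible. The most frequent order, for 76 genes, was lcs7 at 0.3 mM lowest, then Col-0 at 0.3 mM, lcs7 at 2 mM and Col-0 at 2 mM. It held for 72 genes with that single Col-0 array.

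With replicates 2 and 3 of Col-0 at 0.3 mM left out, 36 of the 119 genes were lower and 8 higher (7.44% and 6.42% of all genes), with a median of -0.31. Of the 65 calls made with all arrays, 43 were among these, and the contrast was then no longer orthogonal to the Col-0 difference. The spread of that group, then a single array, is taken from the other groups. AT5G48490 (-0.94 ± 0.22), AT5G01015 (-0.83 ± 0.18) and AT3G06770 (-0.82 ± 0.18) were among those no longer called, at adjusted p of 0.113, 0.0915 and 0.0786, against 0.0104, 0.00693 and 0.0057 with all arrays. In the 12 fits that each left out 1 array, 49 of the 58 lower and 4 of the 7 higher genes passed every time.

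**Figure D5:**
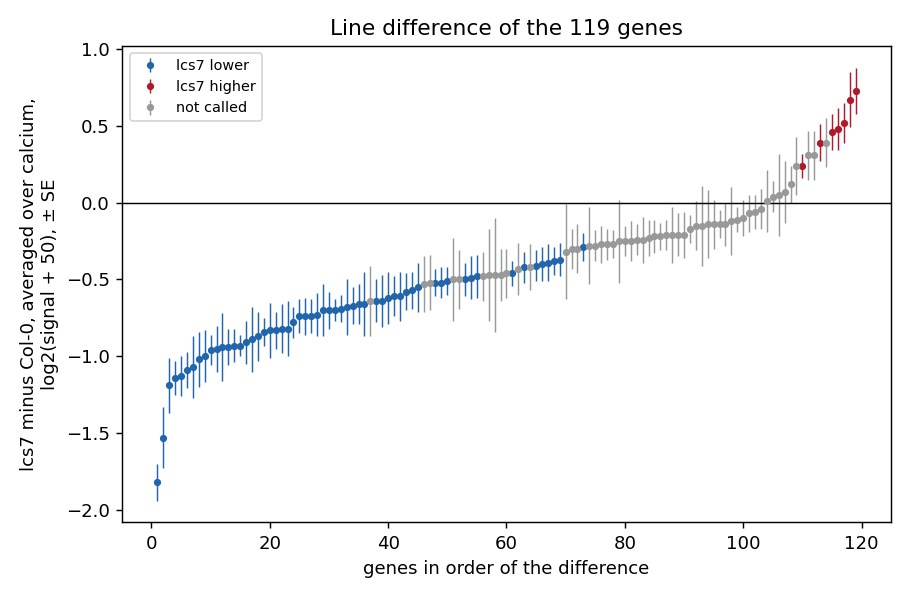
Difference of lcs7 minus Col-0 averaged over both calcium levels for each of the 119 genes, in order of size, on the log2(signal + 50) scale with SE (6 arrays per line). Blue points are the 58 genes called lower in lcs7, red points the 7 called higher, and grey points the 54 not called; values run from -1.82 to 0.73.

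AT1G12080 was the gene with the largest line difference. Its signals were 57.7, 60.6 and 24.5 in lcs7 at 0.3 mM and 217.0, 260.3 and 218.0 in lcs7 at 2 mM. Col-0 had 499.4, 416.2 and 318.0 at 0.3 mM and 676.9, 663.1 and 737.5 at 2 mM. Every lcs7 array lay below every Col-0 array, also across calcium levels, and the averaged difference of lcs7 minus Col-0 was -1.82 ± 0.12 (adjusted p = 2.86e-06). The same complete separation of 6 from 6 arrays held for AT2G15830 and AT2G04790, so for 3 of the 119 genes, against 2.28% of all genes.

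AT1G25230 had the second smallest p among the 119. Its signals were 579.2, 541.5 and 561.7 in lcs7 at 0.3 mM, against 2027.8, 2258.2 and 1743.2 in lcs7 at 2 mM. Col-0 had 1583.9, 1609.6 and 1477.1 at 0.3 mM, against 2552.0, 2868.7 and 2874.2 at 2 mM. The replicates were close together in all groups, and at either calcium level the lcs7 arrays were below the Col-0 arrays (-0.93 ± 0.07, adjusted p = 8.04e-06).

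AT5G45310 had 64.9, 58.0 and 48.1 in lcs7 at 0.3 mM and 167.4, 232.7 and 179.0 in lcs7 at 2 mM. Col-0 had 170.5, 245.8 and 197.7 at 0.3 mM and 359.2, 452.3 and 533.3 at 2 mM. The lcs7 signals at 2 mM thus overlapped those of Col-0 at 0.3 mM, with a line difference of -1.14 ± 0.11 (adjusted p = 3.54e-05). AT4G37080 (-1.09 ± 0.12), AT1G22550 (-0.96 ± 0.10), AT3G19850 (-0.93 ± 0.11), AT5G57760 (-0.84 ± 0.09) and AT1G64330 (-0.70 ± 0.07) were the other lower genes with the smallest p, between 4.43e-05 and 0.000108 after adjustment. AT5G57760 had 56.0, 28.9 and 42.0 in lcs7 at 0.3 mM, 247.1, 258.2 and 226.7 in lcs7 at 2 mM, 128.9, 172.5 and 167.5 in Col-0 at 0.3 mM and 400.7, 385.9 and 328.2 in Col-0 at 2 mM. Its 4 groups did not overlap at all. The differences of at least 2-fold, in 9 genes, also included AT4G25780 (-1.53 ± 0.20), AT5G44680 (-1.19 ± 0.18) and AT2G15830 (-1.13 ± 0.13).

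The 7 genes that were higher in lcs7 each had their highest group mean in lcs7 at 2 mM. By the choice of the genes the highest group is always one at 2 mM, so this largely follows from the call. AT1G62510 had 329.9, 215.1 and 331.5 in lcs7 at 0.3 mM and 1006.0, 1958.5 and 1342.1 in lcs7 at 2 mM. Col-0 had 245.2, 223.9 and 268.0 at 0.3 mM and 492.7, 576.4 and 574.1 at 2 mM. At 2 mM every lcs7 array was above every Col-0 array, while at 0.3 mM the lines overlapped (averaged difference 0.73 ± 0.15, adjusted p = 0.00397).

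AT4G33980 was higher in lcs7 by 0.67 ± 0.18 (adjusted p = 0.0184). Its signals were 878.3, 869.5 and 783.4 in lcs7 at 0.3 mM and 1985.2, 2639.3 and 2887.9 in lcs7 at 2 mM, against 402.1, 947.6 and 557.7 in Col-0 at 0.3 mM and 1042.6, 1347.8 and 1617.2 in Col-0 at 2 mM. AT4G09760 (0.52 ± 0.13) and AT5G50450 (0.46 ± 0.12) were also higher, and these 4 genes passed in all 12 fits without 1 array. AT4G09760 had 839.0, 608.9 and 708.0 in lcs7 at 0.3 mM, 970.4, 1522.6 and 1498.3 in lcs7 at 2 mM, 460.3, 551.2 and 522.2 in Col-0 at 0.3 mM and 677.9, 923.9 and 951.9 in Col-0 at 2 mM. At each calcium level its lcs7 arrays were all above those of Col-0.

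The other 3 of the 7 were less stable. AT5G62280 (0.48 ± 0.14), AT2G30600 (0.39 ± 0.12) and AT2G47890 (0.24 ± 0.08) passed in 4, 4 and 3 of those fits. None of these 3 passed with an offset of 16 (adjusted p of 0.147, 0.0554 and 0.0699) or with no offset (0.521, 0.0745 and 0.0799), where 4 of the 119 genes were higher. AT2G30600 had 1533.8, 1352.7 and 1915.4 in lcs7 at 0.3 mM, 5331.2, 5658.0 and 5635.5 in lcs7 at 2 mM, 1416.8, 1969.5 and 1411.4 in Col-0 at 0.3 mM and 3379.2, 2663.0 and 3742.1 in Col-0 at 2 mM. The lines overlapped at 0.3 mM and were separate at 2 mM. AT5G62280 was dim, with 5.3, 15.9 and 13.7 in lcs7 at 0.3 mM, 236.3, 179.9 and 175.3 in lcs7 at 2 mM, 6.6, 31.3 and 24.2 in Col-0 at 0.3 mM and 60.7, 102.7 and 32.6 in Col-0 at 2 mM. It was higher in lcs7 at 2 mM only, by 1.14, and at 0.3 mM the difference was -0.19, both without a test.

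Another 54 genes were not called, with differences from -0.64 to 0.39, and 18 of them had an unadjusted p under 0.05. The share of all genes at that unadjusted limit is not given here. Several genes with the largest calcium differences were among them: AT2G20670 (-0.32 ± 0.31, adjusted p = 0.545), AT4G16563 (-0.47 ± 0.30, adjusted p = 0.321) and AT2G05540 (0.07 ± 0.20, adjusted p = 0.873). AT3G05900 passed with all arrays (-0.48 ± 0.14, adjusted p = 0.0274), in 6 of the 12 fits without 1 array, and not with replicate 1 as the only Col-0 array at 0.3 mM (adjusted p = 0.187).

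Mean signals of the 119 genes ran from 51.7 to 9030, with a median of 718, against 123 for all locus-only genes. The limits on log2(signal + 50) favour bright genes, since the offset shrinks differences at low signal. AT2G15960 was the brightest. It had 5130.5, 4302.6 and 3425.0 in lcs7 at 0.3 mM, 12961.3, 16415.8 and 14785.2 in lcs7 at 2 mM, 5733.3, 7508.2 and 4736.4 in Col-0 at 0.3 mM and 11546.2, 10045.6 and 11756.2 in Col-0 at 2 mM. Its lines overlapped in low calcium, and averaged over calcium they differed by -0.04 ± 0.13 (adjusted p = 0.891). AT3G07470, AT5G19120, AT2G30930 and AT1G04430 were the next brightest, and none of them passed with all arrays weighted equally (adjusted p from 0.0657 to 0.988). At the other end, 4 genes had a group mean under 20, where the size of a difference is poorly measured: AT3G53250, AT3G46370, AT5G62280 and AT4G37220.

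The limit cuts through a continuum. Just inside it stood AT1G30200, AT5G58900 and AT2G29670, whose smaller difference was -0.60, -0.603 and -0.604, and just outside it AT1G75770, AT3G15630 and AT1G12730 at -0.595, -0.595 and -0.592. When each of the 12 arrays was left out in turn, 65 of the 119 genes met both limits every time and each met them at least 8 times. In the opposite direction, 203 locus-only genes were higher at 0.3 mM by at least 0.6 in both lines.

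By RefSeq all 119 genes are protein-coding, and they lie on all 5 nuclear chromosomes: 34 on chromosome 1, 25 on 2, 19 on 3, 18 on 4 and 23 on 5. As a share of the tested locus-only genes of a chromosome this ran from 0.785% on chromosome 3 to 1.29% on chromosome 2. The median gene length was 2090 bases, against 2079 for all locus-only genes.

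In 5 pairs the genes were near neighbours, with at most 2 protein-coding genes between them. How many such pairs would be found among as many randomly drawn genes was not tested. AT1G22550 and AT1G22570 were adjacent and had nearly the same calcium differences, -1.03 and -1.15 in lcs7 and -0.72 and -0.70 in Col-0. Their line differences were unlike: AT1G22550 was lower in lcs7, while AT1G22570 had 0.31 ± 0.16 (adjusted p = 0.229). AT4G33960 and AT4G33980, with 1 gene between them, were likewise alike in calcium (-1.30 and -1.50 in lcs7, -0.78 and -1.07 in Col-0) and called in opposite directions between the lines, at -1.07 ± 0.20 and 0.67 ± 0.18. Of the other pairs, AT1G49200 and AT1G49210 had -0.93 and -0.96 in lcs7 and -0.67 and -0.82 in Col-0. AT4G37220 and AT4G37240 were unlike in lcs7 (-1.69 and -0.73) and closer in Col-0 (-0.98 and -1.08). AT1G23030 and AT1G23050 had -0.69 and -0.89 in lcs7 and were unlike in Col-0 (-1.33 and -0.72). Both genes of every pair had to meet the limits that chose the genes, so some likeness in calcium follows from that choice.

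A second probe set was measured for 3 of the genes on the same arrays. For AT1G22330 it gave -2.23 in lcs7 and -1.24 in Col-0, beside -2.13 and -1.18 for the one used. For AT2G30600 it gave -1.76 and -0.97, beside -1.77 and -1.01. Both lie close to the values used, whereas the second probe set of AT2G31010, at a mean signal of 94.3, gave -0.62 in lcs7 and -0.14 in Col-0, beside -1.54 and -0.68.

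Of the 1557 genes with a symbol, 35 met the same limits (2.25%), and 18 of these are encoded in the plastid. The 17 nuclear ones had varied roles. Examples, chosen after their values were seen, were EXLA1 (-1.84 in lcs7 and -1.21 in Col-0) of the expansin-like family, XTH33 (-0.98 and -1.97), a xyloglucan endotransglucosylase/hydrolase of the cell wall, AKINBETA1 (-1.66 and -0.73), a subunit of the energy-sensing kinase SnRK1, and MCCA of leucine breakdown (-1.91 and -0.89). Averaged over calcium, 10 of the 35 were lower in lcs7 and 0 higher by limma (11.7% and 9.07% of all genes), for example the transcription factor BZIP61 (-1.03 ± 0.25, adjusted p = 0.013). All 10 were nuclear. Of the 18 plastid genes 0 were called, with 3 at an unadjusted p under 0.05 (share of all genes not given) and a lowest adjusted p of 0.0539. With replicate 1 as the only Col-0 array at 0.3 mM, fewer of the nuclear genes were called lower, and a few plastid genes were. Fewer were called over all genes as well. That fit has a single array in 1 group, so its counts for these genes are not read further.

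Lists of related growth genes were also read for calcium. Of 7 measured tubulins, the subunits of microtubules, 6 were lower at 0.3 mM in lcs7 (of all genes 13.6% were lower and 12.6% higher; median -0.46), such as TUB5 (-1.42 ± 0.12, adjusted p = 9.1e-06). In Col-0 limma called 0 of the 7 (of all genes 1.86% were lower and 1.73% higher; median -0.25), and 4 had an unadjusted p under 0.05. None of the 3 measured genes of the expansin list was called in either line, with 1 in lcs7 and 2 in Col-0 at an unadjusted p under 0.05. For tubulins and expansins alike, the share of all genes at that unadjusted limit is not given. The expansin values were as follows. Their medians lay above 0, at 0.13 in lcs7 and 0.46 in Col-0, but directions were mixed. EXPA4 had 0.60 and 0.71, and EXPA8 had -0.27 and -0.32. These medians leave out the expansins EXPA7 and EXPA18, which were listed as root markers. EXPA7 had -0.31 in lcs7 and 0.13 in Col-0, EXPA18 -0.31 and -0.27, and neither was called. The expansin-like genes EXLA1 (-1.84 in lcs7 and -1.21 in Col-0) and EXLA2 (-1.03 and -1.27) were not on the list. Both met the limits that chose the 119 genes. The listed genes measured here carry a symbol, so none could be among the 119, and of the 18 aquaporins and 10 calcium transporters listed none was analysed here.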

How the data were processed

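Shoot RNA was hybridized to 12 Affymetrix arrays. Each deposited value is the intensity of 1 probe set, not in logs. The lowest value is 0.1, and array means, trimmed by 2% at each end, run from 495.4 to 496.0. Per the submitters' processing notes RMA and oligo 1.32.0 were used, but RMA gives logs with no such floor, so how these values were summarised is not known. Of 22746 probe sets 14016 have a gene in the annotation used, and the others were left out. Of these 14016, 503 name several genes and 13513 name 1 gene. The latter left 13356 genes, 13334 of them matched to RefSeq.

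Signals were taken to log2(signal + 50), the scale of the limits that chose the genes. A mean per group was fitted over all 12 arrays with limma 3.58.1 (R 4.3.3), with eBayes. P-values were 2-sided, adjusted by Benjamini-Hochberg over the 13356 genes, and called at an adjusted p under 0.05. Errors in the text are SE unless stated otherwise. Tables and figures used Python 3.11.15, pandas 2.3.3 and matplotlib 3.10.9. The genes, lists and comparisons were chosen with earlier results of these data known. Genes were named by rank of both calcium differences, of the line test, of signal and of closeness to the limits, with genes singled out for overlap, position or low signal added after their values were seen. Correlations of the deviations of same-numbered replicates were low, with 2 of 18 over 0.1 (from -0.15 to 0.20). The highest was that of replicate 1 of lcs7 at 2 mM with replicate 1 of Col-0 at 0.3 mM. At the 119 genes replicate 1 had the lowest median in every group, and whether these arrays share a shift was not tested. The alternatives were other offsets, normalizations, filters and moderation, array weights, the replicate number as a block and omitted arrays. The brightness comparison was added after the data were seen. Promoter and protein sequences were not analysed here.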

Additional observations from a re-analysis of the deposited data

Results flagged for a closer look

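Among the listed genes, which are outside the 119, some had calcium differences that were not the same in the 2 lines by the interaction term of the limma fit. The count over all genes is not given here, so these genes are not shown to stand out. TUB5 was lower at 0.3 mM by more in lcs7 than in Col-0, with an interaction of -1.02 (SE 0.16, adjusted p = 0.00438). For TUB6 the interaction was -0.60 (SE 0.14, adjusted p = 0.0274), and for TUB9 -0.50 (SE 0.12, adjusted p = 0.0327). The shoot marker RCA had an interaction of -0.46 (SE 0.11, adjusted p = 0.0348), with differences of -0.47 in lcs7 and 0.00 in Col-0. With replicate 1 as the only Col-0 array at 0.3 mM, TUB5 still passed (-0.78 ± 0.17, adjusted p = 0.0488), while TUB6 (-0.48 ± 0.17, adjusted p = 0.184), TUB9 (-0.47 ± 0.15, adjusted p = 0.154) and RCA (-0.51 ± 0.14, adjusted p = 0.0927) did not. No such test was made for the 119 genes, since both differences chose them.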

How the results depend on the processing

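The number of genes that met both limits was 119 with an offset of 50, 180 with an offset of 16 and 583 with no offset. It was 199 without Col-0 replicates 2 and 3 at 0.3 mM and from 89 to 143 without 1 array. Of the 119, limma called 65 for the averaged line difference, between 55 and 73 under the other settings with all arrays, 71 with the replicate block, 54 to 71 without 1 array, and 44 without Col-0 replicates 2 and 3 at 0.3 mM. AT3G07470, not called at first, passed with array weights (adjusted p = 0.0302) and with the replicate block (0.0305), and AT2G30600 was no longer called with the block (0.05). No named gene changed direction while called under any of these.

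The least stable value was the count of all genes called for calcium in Col-0, 480 in all. It was 41 with no offset, 228 with an offset of 16, 721 with trend and robust moderation, 823 without the 40% dimmest genes, and from 39 to 521 without 1 array. The lowest came without Col-0 replicate 3 at 2 mM (39), and it was 201 and 283 without its replicates 1 and 2, 192 without Col-0 replicate 1 at 0.3 mM, 300 without lcs7 replicate 3 at 2 mM, and 286 and 291 without lcs7 replicates 2 and 3 at 0.3 mM. Of the listed tubulins and expansins 0 were called in Col-0, 1 with trend and robust moderation or without the dimmest genes, 2 without Col-0 replicates 2 and 3 at 0.3 mM, and 0 to 1 without 1 array. The cause of these changes was not tested. With 3 arrays per group, signals under 20 limit the precision.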
